A study of Ursus arctos with 5 samples.

Results

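The fatty acid oxidation and peroxisome genes of grizzly bear (Ursus arctos) muscle were taken as every assembled transcript whose deposited gene name begins with a symbol stem of these families, such as ACAD, ACAA, ACAT, ACOT, ACSL, HADH, ECH, ECI, CPT, CRAT, DECR, ETF and PEX. The name pattern found 90 of the 26614 listed transcripts, or 90 of the 9093 that carry a gene name, and they belong to 35 of 4873 named genes. Of these genes, 15 were grouped under mitochondrial oxidation, 3 as acyl-CoA synthetases, 3 as peroxisomal oxidation enzymes, 8 as peroxins and 5 as acyl-CoA thioesterases. Each gene was placed in a single group, and where its protein lies in the cell was not measured. ETF1 was also found by the pattern, although it encodes a translation termination factor and no part of the pathway, and it is described apart but included in the counts over all 35 genes. The rule uses names and no values, though it was set with earlier results of these data known, and all 90 transcripts are in the fit described below.

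Gastrocnemius muscle was biopsied from 2 captive bears named Tia and Star, each in October when active and again in February when hibernating. Poly(A) RNA was purified, and 4 single-end libraries were sequenced, 1 per bear and state. The study's text says that single-end libraries were built from full-length cDNA. Whether this cDNA was depleted of abundant transcripts, as the cDNA for another sequencer was, is not stated there. Every sample is labelled as adult, with an age of 10 years, while the study's text speaks of a subadult and an adult. No treatment, genotype or diet distinguishes the groups in the labels, and both groups come from the same 2 animals. The study's text adds that feeding stopped in early November and resumed in March, and that the injected anaesthetic dose was lower in hibernation. Feeding and anaesthetic dose therefore changed together with the state. With 1 library per bear and state, a difference between the states rests on 2 libraries against 2, and p-values measure only the spread between these libraries. An exact two-sided permutation test of 2 against 2 cannot give a p below 0.333.

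Fatty acids are activated to acyl-CoA by synthetases, carried into mitochondria through the carnitine shuttle and shortened by repeated rounds of dehydrogenation, hydration, a second dehydrogenation and thiolysis. Electrons of the first step pass through the electron transfer flavoprotein to the respiratory chain. Peroxisomes shorten very long and branched fatty acids with their own enzymes, which peroxins import, and thioesterases release free fatty acids from acyl-CoA. Muscle is a major site of fatty acid use, and hibernating bears live on stored fat.

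Expression is given as RPKM, read numbers divided by transcript length and by the library's total of aligned reads. Transcripts of 1 gene could still differ widely, with those of ACSL1 between 1.49 and 24.9 RPKM. A comparison of levels between genes therefore depends on the transcript used for each. Each gene is represented by the transcript that drew the most reads, except where another transcript is described. A change is the difference of log2(RPKM + 0.5) between hibernating and active libraries, which understates the change of low genes. The 4 libraries held 44.7 to 54.2 M (mega) aligned reads, and the 90 transcripts held between 0.184% of them in active Star and 0.267% in hibernating Star. The smallest number of reads behind any of the 90 values in a library was 32 to 69, and the median was 565 to 839. Muscle markers were abundant, with MYH1, a fast myosin, at 2054 to 7801 RPKM and MYH7, the slow myosin, at 1295 to 3004 RPKM. In such bulk samples, fewer cells of a type and less RNA per cell cannot be told apart.

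No transcript of the 90 passed an adjusted p of 0.05 in limma, where 0% of all 26614 transcripts passed. At an unadjusted p under 0.05 limma counted 6 of the 90 and 2237 of all 26614, and the smallest adjusted p among the 90 was 0.577. The study's own criterion was a NOISeq score of at least 0.8, rebuilt here as the share of between-bear differences within a state that a change exceeds in both ratio and size. It is not a p-value. By this score 4 transcripts were higher in hibernation, namely all 3 of ACAA2 and the 1 of ECH1, beside 2.1% of all named transcripts. One transcript, of ACOT11, was lower, beside 1.51%. With the libraries rescaled by median ratios or upper quartiles, 0 were higher and 4 were lower, these being ACOT11 and 3 transcripts of ACADSB. The same rescaling took the named transcripts past the score from 191 higher and 137 lower to 109 and 216 (median ratios) or 99 and 229 (upper quartiles).

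By sign alone, 18 of the 35 genes were higher in hibernation in both bears, where 48.7% of all named genes were. Another 6 were lower in both, where 16.1% were, and 11 differed in sign between the bears. Both hibernating libraries lay above both active ones for 16 genes, beside 35.8% of all named genes, and below them for 4, beside 8.11%. Since most named genes were above 0, with a median change of 0.13 in Tia and 0.17 in Star, changes were also counted against these medians. There 14 of the 35 lay above the median in both bears, beside 31% of all named genes, and 12 lay below it in both, beside 31%. As a whole the 35 genes therefore stood near the background, and the role groups are described apart.

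**Figure D1:**
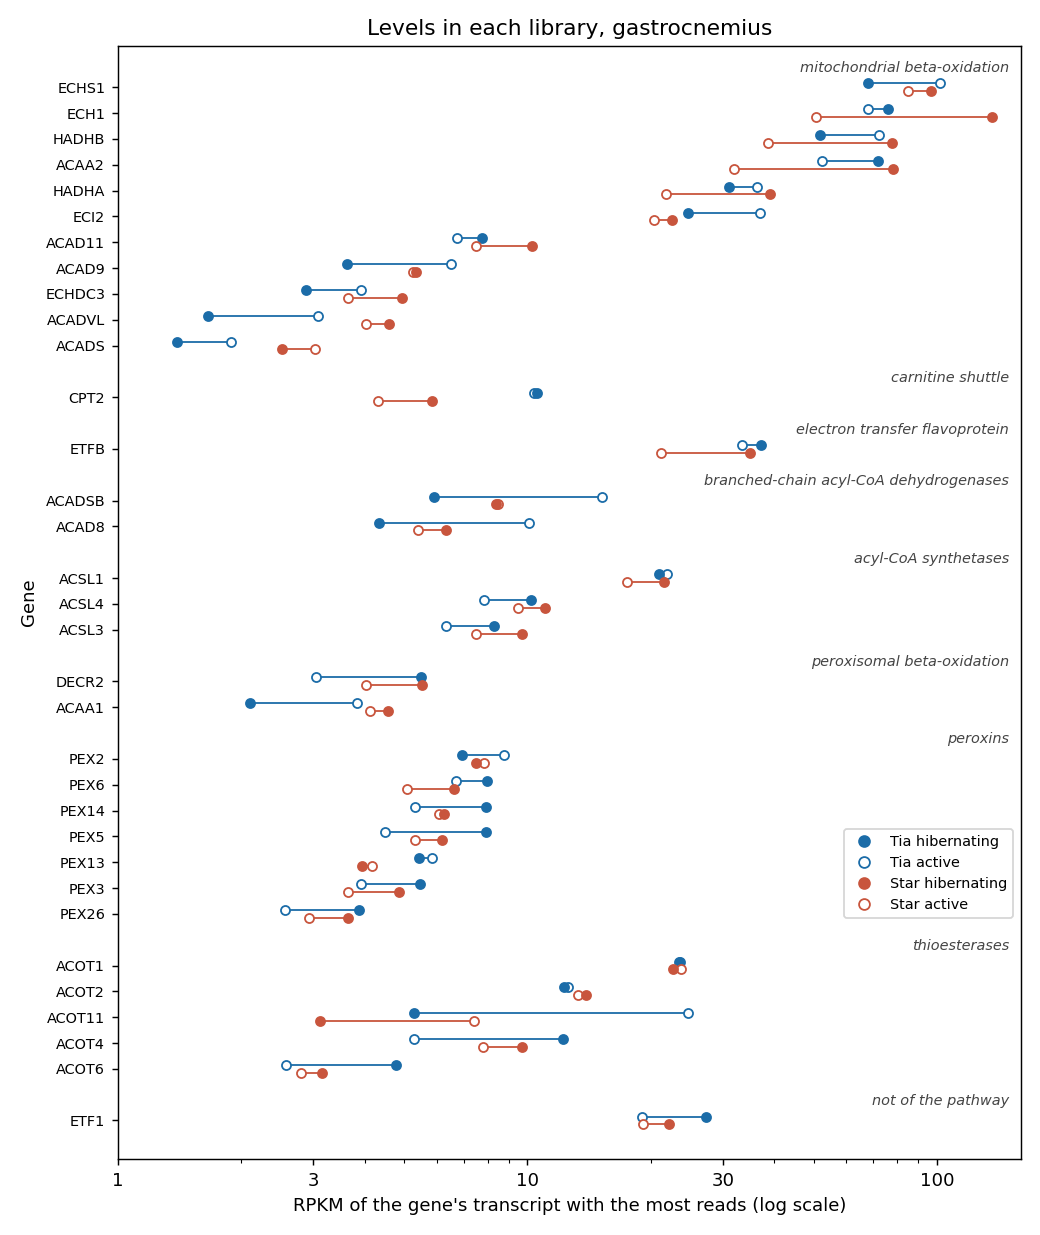
RPKM of 33 of the 35 genes in each library on a log axis, grouped by role and ordered by mean level. Filled circles are hibernating and open circles active libraries, with Tia in blue and Star in red, and a line joins the 2 libraries of a bear. The mitochondrial enzymes ECHS1, ECH1, HADHB and ACAA2 are the most abundant, and the peroxins shown all lie below 9 RPKM.

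In the values as deposited, the mitochondrial oxidation genes were mostly higher in hibernation in Star and mostly lower in Tia. In Star, 13 of 15 were higher in hibernation, beside 72.1% of all named genes, and in Tia 5 of 15 were, beside 60.5%. The median change was 0.39 in Star and -0.39 in Tia. After median-ratio scaling the median was 0.195 in Star and -0.49 in Tia, and after upper-quartile scaling 0.195 and -0.55. As deposited, 2 of the 15 were lower in both bears, and after either scaling 6 were. Relative to the median of all named genes, 4 lay above it in both bears and 5 below it in both, beside 31% each. The change was more positive in Star than in Tia for all 15 genes, beside 54.5% of all named genes. Their summed level was 398 RPKM in hibernating and 459 in active Tia, and 534 in hibernating and 311 in active Star, which is 0.868-fold and 1.72-fold. Genes of mitochondrial content outside the pathway (8 of 14 listed markers measured, among them CS, ATP5B and VDAC1) summed to 2004 and 2025 RPKM in Tia and to 2162 and 1759 RPKM in Star, again hibernating before active. Of these 8, 7 also had the more positive change in Star, and their part in the result was not tested. The opposed signs were not tested either, since each bear has 1 library per state.

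ACAA2, the mitochondrial thiolase that ends each round of oxidation, stood at 71.8 RPKM in hibernating and 52.5 in active Tia, and at 78.0 RPKM in hibernating and 32.0 in active Star. Both hibernating libraries were above both active ones, and active Star was the lowest. The change averaged 0.86 on the log2 scale with a standard error of 0.29 (limma, adjusted p = 0.577), and the score was 0.836. All 3 ACAA2 transcripts agreed, with changes of 0.45 to 0.52 in Tia and close to 1.27 in Star. The score was 0.769 after median-ratio and 0.75 after upper-quartile scaling, under the threshold.

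ECH1, a dienoyl-CoA isomerase that prepares unsaturated fatty acids for the main route, reached the highest level of all 35 genes. It stood at 136 RPKM in hibernating and 50.6 in active Star, and at 76.1 RPKM in hibernating and 67.7 in active Tia. The hibernating libraries again did not overlap the active ones, but the gap in Tia was small, 1.12-fold against 2.70-fold in Star. The change averaged 0.80 with a standard error of 0.34 (limma, adjusted p = 0.592), and the score of 0.847 became 0.778 and 0.764 after the 2 rescalings.

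HADHA and HADHB, the alpha and beta subunits of the mitochondrial trifunctional protein for long-chain fatty acids, had like profiles, with opposite signs in the bears. HADHB stood at 51.7 RPKM in hibernating and 72.3 in active Tia, and at 77.7 RPKM in hibernating and 38.8 in active Star. HADHA stood at 31.0 and 36.3 RPKM in Tia and at 39.1 and 21.8 RPKM in Star, in the same order of states. Hibernating Star was the highest and active Star the lowest library for both subunits, so the states overlapped. The ratio of HADHB to HADHA stayed between 1.67 and 1.99 in the 4 libraries. All 5 HADHA and all 3 HADHB transcripts had opposite signs in the bears, with HADHA changes of -0.23 to -0.20 in Tia and 0.82 to 0.86 in Star.

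ECHS1, the short-chain enoyl-CoA hydratase, and ECI2, an enoyl-CoA isomerase, were highest in active Tia. ECHS1 stood at 67.9 RPKM in hibernating and 102.0 in active Tia, and at 96.8 RPKM in hibernating and 84.8 in active Star. ECI2 stood at 24.6 RPKM in hibernating and 37.0 in active Tia, and at 22.5 and 20.4 RPKM in Star. The states overlapped for both, with changes near -0.58 in Tia and of 0.19 and 0.14 in Star. The 4 enzymes ECHS1, ECH1, HADHB and ACAA2 held 64.2% to 72.9% of the summed level of the mitochondrial genes in each library.

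**Figure D2:**
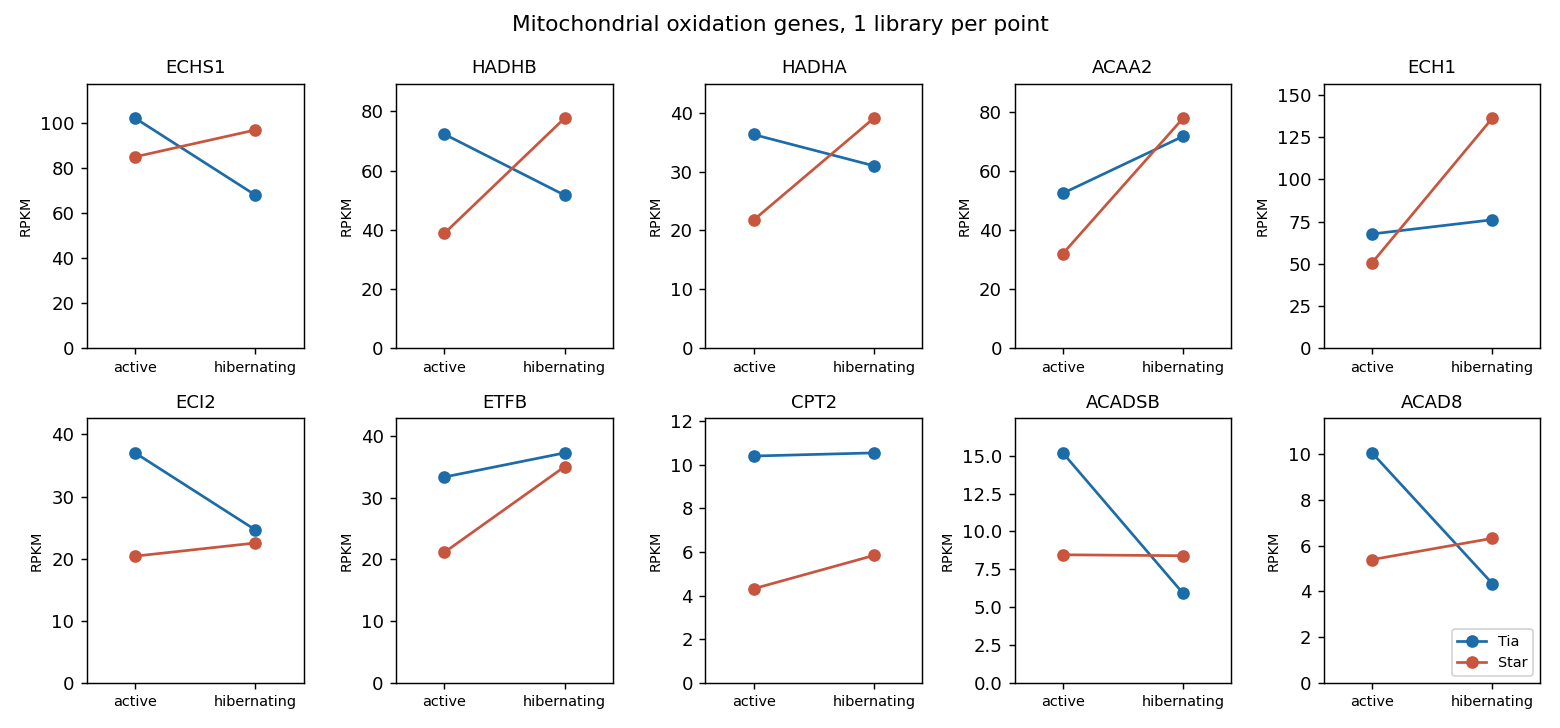
RPKM (linear axis from 0) of 10 mitochondrial genes in active and hibernating muscle, with 1 library per point and a line per bear (Tia blue, Star red). The lines of HADHA, HADHB, ECHS1, ECI2 and ACAD8 run in opposite directions, while both lines of ACAA2, ECH1 and ETFB run upward.

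ETFB, the beta subunit of the electron transfer flavoprotein, was higher in hibernation in both bears. It stood at 37.3 RPKM in hibernating and 33.3 in active Tia, and at 35.0 RPKM in hibernating and 21.1 in active Star. Active Star was the low library and the other 3 lay close together. All 9 ETFB transcripts were higher in both bears, with changes of 0.06 to 0.33 in Tia and 0.53 to 0.75 in Star. These transcripts were assembled from 1 gene and may share reads, so they are not independent measurements.

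CPT2, which frees the acyl group from carnitine inside the mitochondrion, separated the bears and not the states. It stood at 10.5 RPKM in hibernating and 10.4 in active Tia, and at 5.84 RPKM in hibernating and 4.31 in active Star. Both libraries of Tia were above both of Star. Slow-fibre markers (6 of 10 measured, with MYH7 and MYL3 the most abundant) likewise had higher sums in Tia, with 6017 and 5412 RPKM against 2388 and 2915 in Star. Fast-fibre markers (5 of 12 measured) had lower sums in Tia, with 7441 and 10061 RPKM against 14055 and 14604. Single markers did not all separate the bears. The slow marker MYH7B, the slow-fibre and cardiac calsequestrin CASQ2, the fast myosin MYH2 and the fast marker MYBPC2 overlapped between them. Their part in the levels of CPT2 was not tested.

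Of the remaining acyl-CoA dehydrogenases, ACAD11 was higher in both bears, at 7.75 RPKM in hibernating and 6.71 in active Tia and at 10.3 and 7.48 RPKM in Star. ACAD9, which also serves in the assembly of respiratory complex I, stood at 3.63 RPKM in hibernating and 6.50 in active Tia, and at 5.33 and 5.25 RPKM in Star. Hibernating Tia was thus the low library for ACAD9, and the 2 libraries of Star differed 1.02-fold. ACADVL, the dehydrogenase of long chains, was measured at 1.66 to 4.59 RPKM on a transcript of 1014 bases. ACADS, that of short chains, was measured at 1.39 to 3.02 RPKM on a transcript of 674 bases. Whether such short, low transcripts represent the level of the whole gene was not tested. Hibernating Tia was the lowest library for both. ECHDC3, named as an enoyl-CoA hydratase-like protein, stood at 2.88 RPKM in hibernating and 3.92 in active Tia, and at 4.95 and 3.65 RPKM in Star, with opposite signs.

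ACADSB and ACAD8, acyl-CoA dehydrogenases of branched-chain amino acid breakdown, were highest in active Tia. ACADSB stood at 5.91 RPKM in hibernating and 15.2 in active Tia, a 0.389-fold level, and at 8.39 RPKM in hibernating and 8.46 in active Star. ACAD8 stood at 4.34 RPKM in hibernating and 10.1 in active Tia, and at 6.33 and 5.39 RPKM in Star. The difference therefore lay in Tia, while Star stood at 0.993-fold for ACADSB and 1.17-fold for ACAD8. All 6 ACADSB transcripts were lower in both bears, with changes of -1.37 to -0.30 in Tia and -0.18 to -0.01 in Star. The mean change of ACADSB was -0.65 with a standard error of 0.35 (limma, adjusted p = 0.632), and its score was 0.743, or 0.806 and 0.814 after the 2 rescalings.

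The acyl-CoA synthetases showed small changes. ACSL1, the main long-chain synthetase of muscle, stood at 20.9 RPKM in hibernating and 21.9 in active Tia, and at 21.6 RPKM in hibernating and 17.5 in active Star. Its 15 transcripts reached from 1.49 to 24.9 RPKM, and 7 were higher in both bears while 8 had opposite signs, with changes of -0.15 to 0.25 in Tia and 0.16 to 0.36 in Star. ACSL3 stood at 8.29 and 6.32 RPKM in Tia and at 9.67 and 7.48 RPKM in Star, hibernating before active. ACSL4 stood at 10.2 and 7.84 RPKM in Tia and at 11.0 and 9.46 RPKM in Star. Both were higher in hibernation without overlap of the states, with mean changes of 0.36 and 0.29 (standard errors of 0.23). The ACSL3 and ACSL4 transcripts carry neighbouring assembly numbers and encode similar proteins, so the split of reads between them is uncertain.

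**Figure D3:**
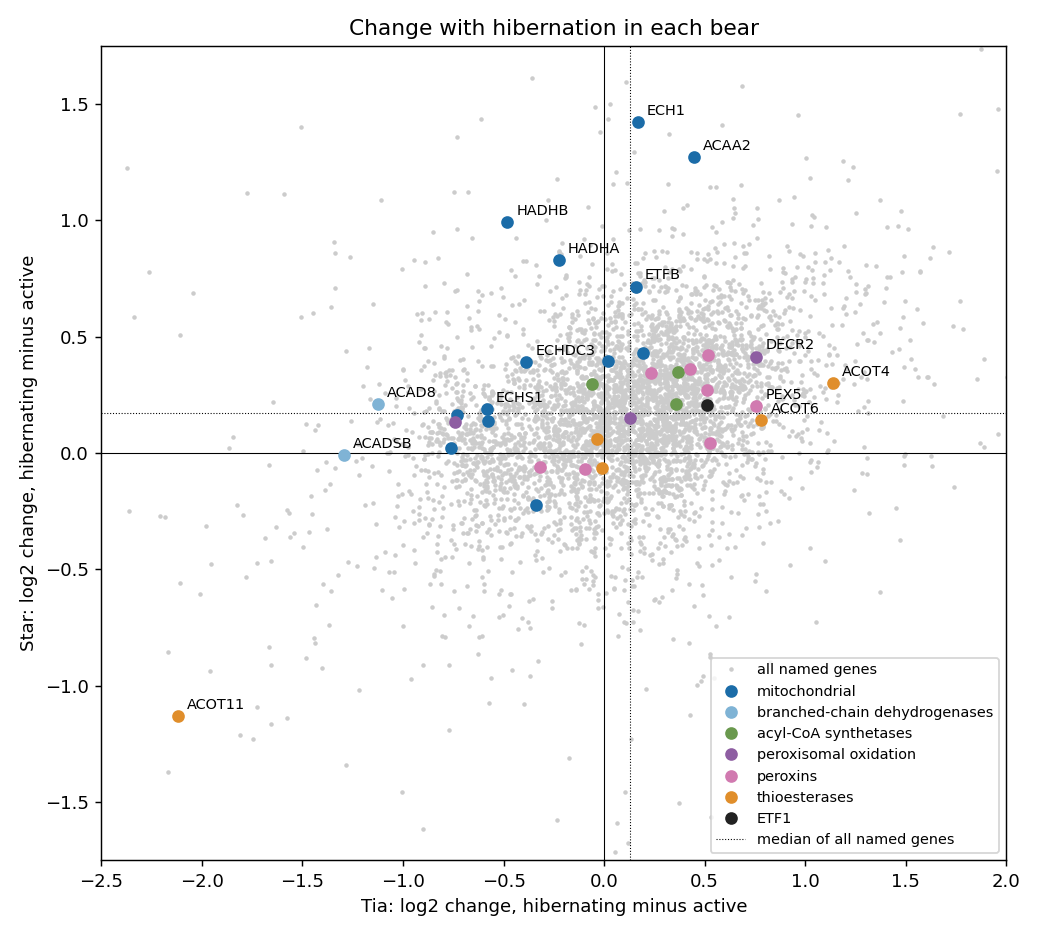
Log2 change between hibernating and active muscle in Tia (horizontal axis) and Star (vertical axis) for the 35 genes, coloured by role, over all named genes in grey. Dotted lines mark the median of all named genes (0.13 and 0.17), and 46 named genes lie outside the axes. The mitochondrial genes lie above the diagonal and mostly to the left, the peroxins mostly to the upper right, and ACOT11 alone at the far lower left.

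In the values as deposited, no peroxin had opposite signs in the bears, beside 35.2% of all named genes. Of 8 genes, 6 (75%) were higher in hibernation in both bears, beside 48.7% of all named genes, and 2 (25%) were lower in both, beside 16.1%, with a median change of 0.47 in Tia and 0.24 in Star. For 5 of them both hibernating libraries lay above both active ones, beside 35.8% of all named genes. Relative to the median of all named genes, 5 lay above it in both bears and 2 below it in both, beside 31% each. The median changes in Tia and Star were 0.37 and 0.04 after median-ratio scaling and 0.30 and 0.04 after upper-quartile scaling. After either scaling, 5 of the 8 were higher in both bears and 2 lower in both, so not all kept the same sign in both bears. Their summed level was 48.6 RPKM in hibernating and 39.6 in active Tia and 41.4 and 36.7 RPKM in Star, which is 1.23-fold and 1.13-fold. No peroxin passed either criterion, and standard errors of their mean changes were 0.22 to 0.29.

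PEX5, the receptor that carries most enzymes into the peroxisome, showed the widest gap of the peroxins. It stood at 7.92 RPKM in hibernating and 4.48 in active Tia, and at 6.17 RPKM in hibernating and 5.30 in active Star. The states did not overlap, and all 3 of its transcripts agreed, with changes of 0.74 to 0.76 in Tia and 0.20 to 0.23 in Star. PEX14, at the docking site for PEX5, stood at 7.90 and 5.32 RPKM in Tia and at 6.27 and 6.07 RPKM in Star. PEX13, also of the docking site, stood at 5.44 and 5.85 RPKM in Tia and at 3.95 and 4.17 RPKM in Star. The 2 docking genes thus differed in sign, though the changes of PEX13 were only -0.10 and -0.07.

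PEX6, an ATPase that recycles the receptor, stood at 7.95 RPKM in hibernating and 6.68 in active Tia, and at 6.60 and 5.09 RPKM in Star. PEX26, its membrane anchor, stood at 3.87 and 2.56 RPKM in Tia and at 3.65 and 2.93 RPKM in Star. Both genes were higher in hibernation in both bears, by 1.19-fold to 1.51-fold. PEX3, needed to insert peroxisomal membrane proteins, stood at 5.45 and 3.92 RPKM in Tia and at 4.85 and 3.66 RPKM in Star. PEX2, a ubiquitin ligase of receptor recycling, was lower at 6.92 and 8.76 RPKM in Tia and 7.49 and 7.82 RPKM in Star.

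Among the peroxisomal oxidation enzymes, DECR2, a dienoyl-CoA reductase, stood at 5.49 RPKM in hibernating and 3.04 in active Tia, and at 5.54 RPKM in hibernating and 4.03 in active Star. The hibernating libraries lay above the active ones, with a mean change of 0.59 and a standard error of 0.26 (limma, adjusted p = 0.597, score of 0.634). ACAA1, the peroxisomal thiolase, stood at 2.10 RPKM in hibernating and 3.83 in active Tia, and at 4.57 and 4.13 RPKM in Star. It was lowest in hibernating Tia and did not follow DECR2.

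The thioesterases held the lowest and the highest change in Tia among the 35 genes, in ACOT11 and ACOT4. ACOT11, an acyl-CoA thioesterase with a lipid-binding START domain, stood at 5.29 RPKM in hibernating and 24.7 in active Tia, and at 3.12 RPKM in hibernating and 7.42 in active Star. Both hibernating libraries lay below both active ones, at 0.214-fold in Tia and 0.420-fold in Star, and active Tia was far above the other 3. No other gene of the 35 differed 2-fold or more with the same sign in Tia and in Star. The mean change was -1.63 with a standard error of 0.57 (limma, adjusted p = 0.577), and the score of 0.947 was 0.951 and 0.952 after the 2 rescalings. A second ACOT11 transcript of 826 bases lay at 1.57 to 2.48 RPKM, with changes of -0.18 in Tia and 0.24 in Star.

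ACOT4, a thioesterase of dicarboxylic acyl-CoA, stood at 12.2 RPKM in hibernating and 5.29 in active Tia, and at 9.70 RPKM in hibernating and 7.78 in active Star. The states did not overlap, and the mean change was 0.72 with a standard error of 0.28 (limma, adjusted p = 0.592, score of 0.747). ACOT6 stood at 4.78 and 2.57 RPKM in Tia and at 3.15 and 2.81 RPKM in Star, hibernating before active. ACOT2, the mitochondrial long-chain enzyme, was level in all 4 libraries at 12.3 to 13.9 RPKM on its transcript with the most reads. ACOT1, its cytosolic relative, was also level, at 22.7 to 23.7 RPKM on a transcript of 441 bases. The ratio of ACOT4 to this ACOT2 transcript was 0.995 in hibernating and 0.420 in active Tia, and 0.698 in hibernating and 0.585 in active Star. A second ACOT2 transcript, of 894 bases, lay higher at 18.9 to 22.1 RPKM, so the ratio depends on the transcript used. ACOT1, ACOT2, ACOT4 and ACOT6 are close copies of one another, so reads may have been split between them and their separate values are uncertain.

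**Figure D4:**
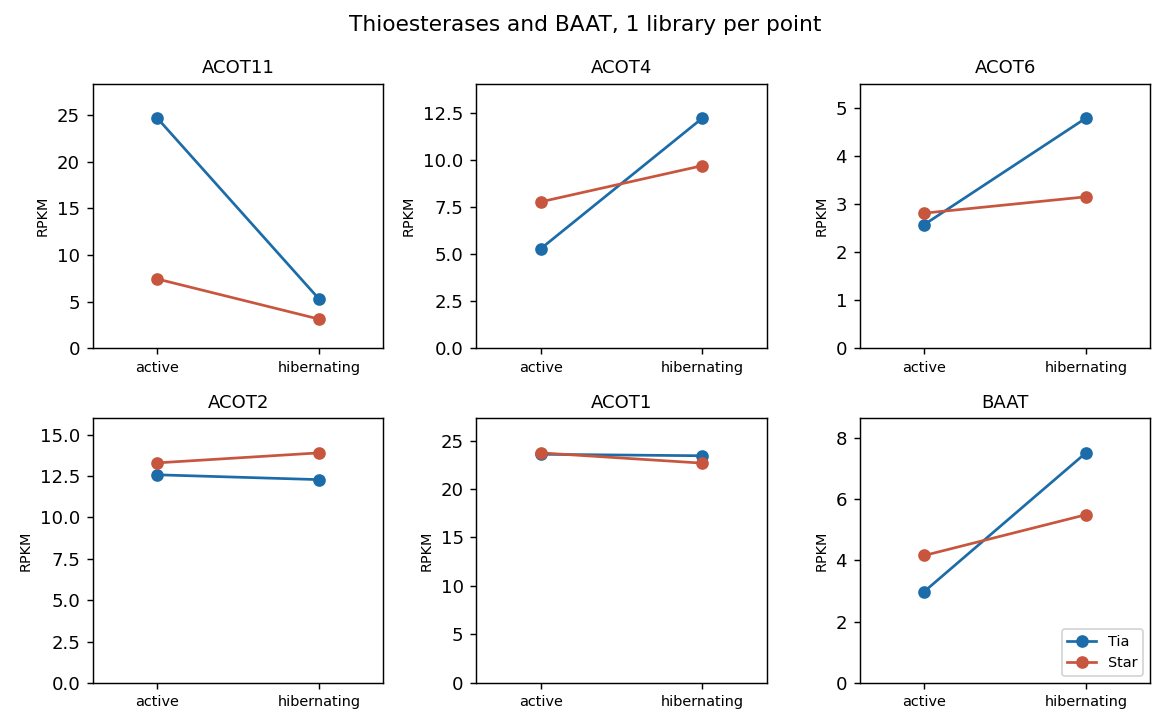
RPKM (linear axis from 0) of the 5 thioesterases and of the transcript named BAAT (a related acyltransferase outside the name pattern, the name not checked by sequence), with 1 library per point and a line per bear (Tia blue, Star red). ACOT11 runs downward in both bears, ACOT4, ACOT6 and BAAT run upward, and ACOT2 and ACOT1 are nearly flat.

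Several genes also had a low transcript that did not follow the main one. A HADHB transcript of 933 bases lay at 1.26 RPKM in hibernating and 2.24 in active Tia, and at 3.38 and 3.26 RPKM in Star, so the 2.00-fold difference of the main HADHB transcript in Star was not seen there. Of the 90 transcripts, 31 had a mean level under 5 RPKM. Hibernating Tia was the lowest library for 10 of these 31 (32.3%), beside 25.9% of named transcripts at that level. The 10 include both transcripts of ACADVL and of ACAA1, the only one of ACADS, and the low transcripts of HADHB, ACADSB, ACAD11 and ACOT11. Across all 90, active Star was the lowest library for 52 (57.8%), beside 33.4% of named transcripts.

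Other genes of the pathway were taken from a list by function, of which 25 of 58 were measured. Of these, 8 (32%) were higher in hibernation in both bears and 8 (32%) lower in both, beside 48.7% and 16.1% of all named genes, and the median change was -0.14 in Tia and 0.13 in Star. In limma none passed an adjusted p of 0.05 and 2 had an unadjusted p under 0.05, as did 399 of the 4873 named genes. By the score 0 were higher and 2 were lower, beside 120 and 74 of the 4873 named genes. PDK4, a kinase that shuts off pyruvate dehydrogenase and so favours fatty acid use, stood at 40.2 RPKM in hibernating and 580 in active Tia, and at 173 RPKM in hibernating and 159 in active Star. Active Tia was far above the other 3 libraries and the bears had opposite signs, with a score of 0.987. PCCB, a propionyl-CoA carboxylase subunit, stood at 14.7 RPKM in hibernating and 41.1 in active Tia and at 15.7 and 17.9 RPKM in Star (score of 0.859).

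PDK4 and PCCB were thus highest in active Tia, which was the highest library for 9 of the 35 genes (25.7%), among them ACOT11 and ACADSB, beside 20.3% of all named genes. The 3 other listed genes with the most reads were AMACR, SCP2 and GNPAT, all peroxisomal. AMACR, a racemase of branched fatty acids, stood at 52.6 and 75.5 RPKM in Tia and at 63.4 and 53.1 RPKM in Star, hibernating before active. SCP2, a sterol carrier with a thiolase form, stood at 34.7 and 34.6 RPKM in Tia and at 23.5 and 19.8 RPKM in Star. GNPAT, which starts plasmalogen synthesis, stood at 19.8 and 23.8 RPKM in Tia and at 23.4 and 21.2 RPKM in Star. BAAT, chosen after its values were seen because its transcript is numbered beside those of ACOT2, ACOT4 and ACOT6 in the assembly, stood at 7.52 and 2.99 RPKM in Tia and at 5.49 and 4.16 RPKM in Star. Its order of libraries was that of ACOT4. The proteins are related, and whether this transcript belongs to BAAT or to an ACOT gene was not tested.

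ETF1, the translation factor, stood at 27.3 RPKM in hibernating and 19.0 in active Tia and at 22.2 and 19.2 RPKM in Star. Leaving it out gave 17 of 34 genes higher in both bears and 6 lower in both. Of fat-cell markers, PLIN4 was the only one of 12 measured, at 62.3 and 71.2 RPKM in Tia and 105 and 76.8 RPKM in Star. Of endothelial markers, 2 of 8 were measured, with sums of 16.8 and 18.4 RPKM in Tia and 16.7 and 10.8 RPKM in Star. Active Star was the lowest library for endothelial markers, as for ACAA2, ECH1, HADHA, HADHB and ETFB, and the part of these cells in those genes was not tested. Of blood markers CD68, of macrophages, was the only one of 9 measured, at 6.41 and 3.94 RPKM in Tia and 7.12 and 3.28 RPKM in Star. ACADM, ACADL, CPT1A, CPT1B, CRAT, ACAT1, DECR1, HADH, ECI1 and ETFA are not analysed here.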

How the data were processed

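The authors aligned single-end Illumina reads with SOAP2 (at most 2 mismatches) to transcripts assembled de novo, named these by BLAST to human proteins, and deposited RPKM and transcript length (an other unit, in bases). All listed values were at 1 RPKM or more, so no lower transcript is analysed. How reads fitting several transcripts were assigned is not given in the sources used here. RPKM times length fell on whole reads for 94.6% to 98.6% of low values of short transcripts (within 0.1 read), which gave the depth. In R 4.3.3, limma 3.58.1 compared log2(RPKM + 0.5) over all 26614 transcripts with a trended prior and Benjamini-Hochberg adjustment. NOISeq was not installed, so its score was rebuilt (Python 3.11.15, numpy 2.4.6, pandas 2.3.3) from 53228 between-bear differences. The code was tested on simulated data with changes larger than any member's and without a bear effect. That test concerns the code and not the results. Each state is 1 labelled sample holding both bears, split by the bear names in the column headers. The same animal pairs the libraries, and deviations of the bears in the 2 states had r = 0.356 across named transcripts. Matched genes are named by the transcript with the most reads, and 2 that count in the totals are not reported singly here. Of the pathway list, genes past the score and otherwise the 3 with the most reads are named. Members and lists were chosen with earlier results of these data known, and marker lists after the values were seen.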

Additional observations from a re-analysis of the deposited data

Results flagged for a closer look

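In all, 4 genes differed by at least 0.2 on the log2 scale in opposite directions in the bears: ACAD8, ECHDC3, HADHA and HADHB. The change in Star minus that in Tia was 1.34 for ACAD8, 0.78 for ECHDC3, 1.06 for HADHA and 1.47 for HADHB. With 1 library per bear and state this difference was not tested. Among all named genes, 476 (9.77%) met the same condition.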

How the results depend on the processing

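The 2 libraries per state, the floor of 1 RPKM and reads shared between transcripts limit every value. With the bear as a replicate block in limma, 0 of the 90 transcripts passed an adjusted p of 0.05 (smallest 0.236), and 10 had an unadjusted p under 0.05 against 6 without the block (3628 against 2237 of all transcripts); over all settings the smallest adjusted p was 0.236 to 0.778. At a score of 0.9 instead of 0.8, 1 transcript (ACOT11) remained of 5. Median-ratio and upper-quartile scaling shifted the median of all named genes by -0.11 and -0.19 in Tia and by -0.22 and -0.22 in Star. The median mean change was then -0.15 and -0.18 for mitochondrial genes (0.00 as deposited), -0.15 and -0.18 for thioesterases (0.01) and 0.13 and 0.092 for synthetases (0.29). For peroxins it was 0.16 (0.34) and 2 mitochondrial genes were higher in both bears (5), both after upper-quartile scaling. The same 2 scalings gave ECHDC3 -0.15 and -0.18, ACOT2 -0.15 and -0.18, and ACSL1 -0.044 and -0.082. A pseudocount of 0.1 gave -0.0028 for ECHDC3 and the mitochondrial median. Among transcripts of at least 5 RPKM, the thioesterase median was -0.011 and 3 peroxins were higher in both bears.

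Leaving out 1 bear (a value with no test) gave a mitochondrial median of -0.39 to 0.39 with 5 to 13 genes higher, a thioesterase median of -0.0091 to 0.062 and a synthetase median of 0.30 to 0.36. The sign turned for ACAA1 (-0.74 to 0.13), ACAD8 (-1.12 to 0.21), ACAD9 (-0.76 to 0.021), ACADVL (-0.73 to 0.16), ECHS1 (-0.58 to 0.19), ECI2 (-0.58 to 0.14), ACOT2 (-0.033 to 0.062), ACSL1 (-0.062 to 0.30), ECHDC3 (-0.39 to 0.39), HADHA (-0.23 to 0.83) and HADHB (-0.48 to 0.99). Of 222 other gene values, 7 had another sign, those of ECHDC3, ACOT2 and ACSL1 above. Alternatives for the median of the peroxisomal oxidation enzymes are not reported here. The cause was not tested.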
